A study of Homo sapiens with 6 samples.

Results

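Interferon receptors are pairs of membrane chains of the class II cytokine receptor family, and 7 genes of that family are described here. IFNAR1 and IFNAR2 form the receptor of type I interferons, and IFNGR1 and IFNGR2 that of type II, interferon gamma. IFNLR1, formerly IL28RA, forms with IL10RB that of type III, the lambda interferons. IL10RA is a chain of the interleukin 10 receptor, also with IL10RB. The 7 genes were chosen by name, as the clusters whose only gene symbol in the array's annotation was that of a chain. Each of the 7 genes had 1 transcript cluster, the unit into which the array groups its probes along a gene, among 33297 clusters, of which 19460 carried a single symbol and represented 18417 genes. The RNA came from HEK293 cells, an established line of human embryonic kidney origin, and was hybridised to 6 Affymetrix whole-transcript arrays, 3 titled control and 3 titled treatment. The stated question was which mediators go with an anti-HIV effect of transfecting the empty plasmid pCMV9. The labels disagree on the control: the source field gives the control cells a transient vector and the treatment cells a Neo vector, whereas the design text names no vector for the controls and calls them untreated. The titles, control and treatment, are used as group names, and no dose or time is given in the sources used here.

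A ligand brings its receptor's chains together, which activates Janus kinases held on their intracellular tails: TYK2 on IFNAR1 and on IL10RB, JAK1 on IFNAR2, IFNGR1, IFNLR1 and IL10RA, and JAK2 on IFNGR2. The kinases phosphorylate STAT factors. Types I and III both lead to ISGF3, a complex containing IRF9 that binds the interferon-stimulated response element (ISRE) of antiviral genes. Type II acts through another element, the gamma-activated site (GAS). IFNAR and IFNGR chains are made by most cell types, IFNLR1 mainly by epithelial cells and some leukocytes, and IL10RA mainly by leukocytes. RNA levels say nothing of the amount of a chain on the cell surface.

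The promoter sequences show which of the receptor genes and of their targets hold letters of these 2 elements. RefSeq windows on GRCh38.p14, from 250 bases before to 50 bases after a transcription start, were held for 6 of the 7 chains, 8 windows in all. The ISRE core, TTTC followed after any 2 bases by TTTC and searched on both strands, was in the windows of 0 of the 6 chains, of 6 of 7 genes in a list of ISGF3 targets and of 4.38% of all 27305 genes with a window. The GAS pattern TTCNNNGAA, which reads the same on both strands, was in the windows of 2 of the 6 chains, IFNLR1 and IL10RB, which together form the type III receptor, of 2 of the 7 ISGF3 targets, of 3 of 5 genes in a list of interferon gamma targets and of 9.38% of all genes. The 2 patterns can overlap each other. Below are the 100 bases before the outermost start of IFNAR1, IFNGR1, IL10RB and IFNLR1, which hold neither pattern, then the GAS matches, and for contrast the ISRE pair of the target IFIT1, each 5′ to 3′ with matches in capitals.
IFNAR1, chr21:33324295-33324394, plus strand: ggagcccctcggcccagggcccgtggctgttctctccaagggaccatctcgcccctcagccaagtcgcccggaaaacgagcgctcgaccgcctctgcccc
IFNGR1, chr6:137219386-137219485, minus strand: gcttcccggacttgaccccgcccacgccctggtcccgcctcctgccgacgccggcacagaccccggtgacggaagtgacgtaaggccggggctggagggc
IL10RB, chr21:33266267-33266366, plus strand: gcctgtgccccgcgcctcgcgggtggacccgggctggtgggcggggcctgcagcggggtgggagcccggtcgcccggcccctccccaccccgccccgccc
IFNLR1, chr1:24187290-24187389, minus strand: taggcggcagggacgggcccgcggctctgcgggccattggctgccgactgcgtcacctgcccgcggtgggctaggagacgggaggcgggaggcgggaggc
IFNLR1 GAS match, chr1:24187480-24187539, minus strand: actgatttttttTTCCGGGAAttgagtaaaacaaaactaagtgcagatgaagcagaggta
IL10RB GAS match, chr21:33266369-33266396, plus strand: ctccgctggTTCCCGGAAgccgccgcgg
IFIT1 ISRE matches, chr10:89392493-89392552, plus strand: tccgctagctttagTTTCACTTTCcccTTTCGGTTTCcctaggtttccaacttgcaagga

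The GAS match of IFNLR1 began 238 bases before the start, and that of IL10RB 12 bases after it. The windows of IFNAR1, IFNGR1, IFNGR2, IFNLR1 and IL10RB were 51.3% to 80.0% G and C with 19 to 44 CpG dinucleotides in 300 bases, while that of IL10RA had 50.3% and 4. A match describes letters in this window, not binding, and OAS1, whose RNA rose, had no ISRE core in its window. IFNAR2 is named here without a sequence.

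Facts of the whole series are few. Median intensity per array was 77.2 to 84.2, and arrays of the same group had a Pearson's r of 0.956 to 0.985 over all clusters, against 0.957 to 0.981 for arrays of different groups. The lowest mean r with the other arrays, 0.963, was that of treatment replicate 3. Among the 13069 clusters with a control mean of 100 to 1000, where 5 of the 7 chains lie, the median of treatment replicate 3 in its difference from the control mean was -0.20 on the log2 scale, against 0.01 and -0.03 in treatment replicates 1 and 2, and 41.7% of these clusters had their lowest value on that array. All 6 HEK293 markers listed (VIM, KRT8, KRT18, PAX2, CDH2 and NEFM) were measured, 5 of them above background on every array and PAX2 on 5 of 6. As a gauge of background, each array's 95th percentile of 360 clusters for olfactory receptors, genes with no known role in this line, was 52.4 to 78.8. Changes are differences of log2(intensity + 16), treatment minus control, with limma's SE. "Rose" and "fell" mean a Benjamini-Hochberg adjusted p under 0.05 over all 33297 clusters. Whether replicates were separate cultures is not labelled, so the spread behind each p-value is that of these arrays and may be technical.

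Of the 7 receptor chains 0 passed limma, while 124 clusters, 0.372% of all tested, did (0.357% rose and 0.015% fell). At an unadjusted p under 0.05 was 1 of the 7 chains, IL10RA, beside 7.3% of all clusters. The median log2 change of the 7 was 0.04, beside 0.01 over all clusters, with 4 values above 0 and 3 below. It depended on single arrays, from -0.15 without treatment replicate 1 to 0.18 without treatment replicate 3. The 95% intervals of the 7 changes ran from -0.72, the lower bound of IFNGR2, to 0.96, the upper bound of IL10RA. They lay within a 2-fold change either way on this scale, and the smallest change called among all clusters was 1.06. With 3 arrays a group, changes of a size inside those intervals could not be detected. In bulk RNA, fewer cells making a chain and less RNA per cell cannot be told apart.

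**Figure D1:**
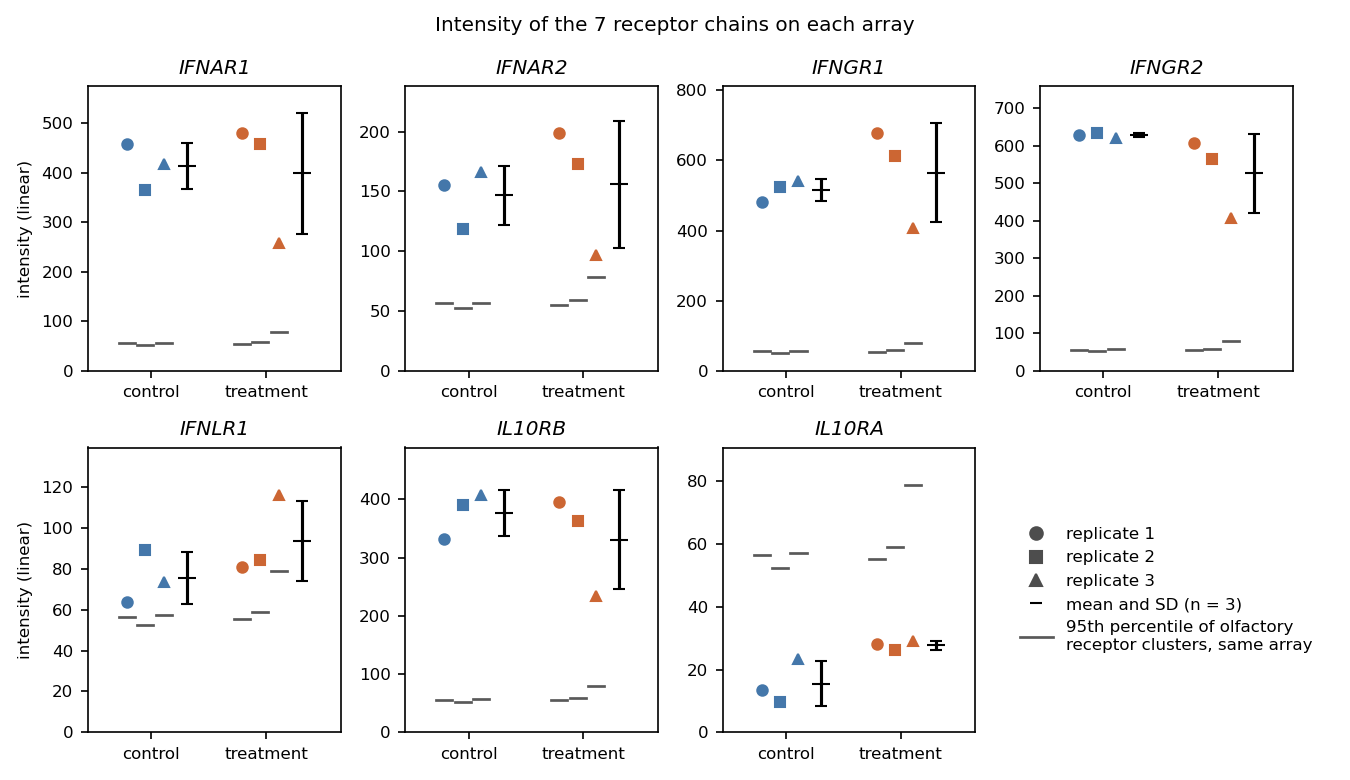
Linear intensity of each receptor chain on the 3 control (blue) and 3 treatment (orange) arrays, with marker shape giving the replicate, the mean with SD (n = 3) in black, and short grey lines at that array's 95th percentile of olfactory receptor clusters. All points lie above their grey lines except those of IL10RA, which all lie below, and treatment replicate 3 is the lowest point for IFNAR1, IFNAR2, IFNGR1, IFNGR2 and IL10RB but the highest for IFNLR1 and IL10RA.

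Of the type I receptor, IFNAR1, the chain that holds TYK2, gave 458, 365 and 418 in control replicates 1, 2 and 3, and 479.7, 459 and 259 in treatment replicates 1, 2 and 3. Treatment replicates 1 and 2 were above all controls and replicate 3 below them, so the groups overlapped. The means were 414 ± 46.9 and 399 ± 122 (SD, n = 3), a log2 change of -0.09 ± 0.245 (95% interval -0.62 to 0.44; limma, adjusted p = 0.957). Without treatment replicate 3 the value was 0.18 (-0.23 to 0.59), with the sign turned. IFNAR2, the chain that binds type I interferon most tightly and is also known in shortened and soluble forms that 1 cluster does not separate, gave 156, 119 and 166 in control and 198, 173 and 96.6 in treatment arrays. It had the same order within the treatment group as IFNAR1, with replicates 1 and 2 above every control array and replicate 3 below. The means were 147 ± 24.7 and 156 ± 53.0 (SD, n = 3), a log2 change of 0.04 ± 0.254 (-0.51 to 0.59; limma, adjusted p = 0.984), and 0.32 (-0.13 to 0.77) without treatment replicate 3.

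Of the type II receptor, IFNGR1, the ligand-binding chain, gave 481, 523 and 541 in control and 677, 611 and 408 in treatment arrays. The treatment arrays again lay on both sides of the controls. The means were 515 ± 30.9 and 565 ± 140.1 (SD, n = 3), a log2 change of 0.10 ± 0.224 (-0.38 to 0.58; limma, adjusted p = 0.944), and 0.31 (-0.08 to 0.71) without treatment replicate 3. IFNGR2, the signalling chain that holds JAK2, gave 628, 632 and 622 in control and 608, 564 and 407 in treatment arrays. Its control arrays were the closest together of the 7 chains relative to their mean (627 ± 5.38, SD, n = 3), and every treatment array was below every control array, with a mean of 526 ± 106 (SD, n = 3). The log2 change of -0.27 ± 0.21 (-0.72 to 0.19) did not pass limma (adjusted p = 0.793). Without treatment replicate 3 it was -0.10 (-0.48 to 0.29). Among the 7 chains, IFNGR2 and IL10RA had groups that did not overlap. Over all clusters 14.6% had none, 7.1% with the treatment arrays lower, as for IFNGR2, and 7.47% with them higher, as for IL10RA.

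Of the type III receptor, IFNLR1, which gives it its specificity for lambda interferons, gave 63.6, 89.2 and 73.6 in control and 80.7, 84.0 and 116 in treatment arrays. All 6 values exceeded the olfactory gauge of their array, 97.2% of the olfactory clusters had a lower control mean, and the groups overlapped. The means were 75.5 ± 12.9 and 93.6 ± 19.5 (SD, n = 3), a log2 change of 0.26 ± 0.213 (-0.20 to 0.71; limma, adjusted p = 0.802). Without treatment replicate 3, the only array on which IFNLR1 exceeded every control, it was 0.11 (-0.31 to 0.54). On that array the gauge was also highest, 78.8 against 52.4 to 58.9 on the others. IL10RB, the chain shared with the receptors of interleukins 10, 22 and 26, gave 331, 390.4 and 407 in control and 395, 363 and 235 in treatment arrays. Treatment replicates 1 and 2 lay inside the control range and replicate 3 far below it. The means were 376 ± 40.1 and 331 ± 84.7 (SD, n = 3), a log2 change of -0.21 ± 0.228 (-0.70 to 0.29; limma, adjusted p = 0.86), and 0.01 (-0.40 to 0.42) without treatment replicate 3.

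IL10RA, the chain that makes a cell responsive to interleukin 10, stayed under the olfactory gauge on all 6 arrays. It gave 13.6, 9.52 and 23.4 in control and 28.1, 26.2 and 28.9 in treatment arrays, so the groups did not overlap. The means were 15.5 ± 7.13 and 27.7 ± 1.41 (SD, n = 3), a log2 change of 0.50 ± 0.214 (0.04 to 0.96), with an unadjusted limma p of 0.0359 and an adjusted p of 0.68. The 360 olfactory clusters had a median change of 0.12, 7.22% of them had an unadjusted p under 0.05, and 15.6% had groups that did not overlap. With a plain log2 its value was 0.94, with an interval up to 1.80, and with an offset of 50 it was 0.25, so the size depended on the offset. Of the leukocyte markers fixed beside it, 9 of 10 were measured and 0 passed, with a summed intensity of 1654 to 2041 in control and 1632 to 2040.3 in treatment arrays. PTPRC, CD2, CD3E, MS4A1 and ITGAM were under the gauge on all 6 arrays, while CD14, LCP1 and SPI1 were above it on all 6 and CORO1A on 5 of 6. Of 6 fibroblast markers, 0 passed, and COL1A1 alone was above the gauge on every array; their summed intensity was 507 to 709.7 in control and 489 to 577 in treatment arrays.

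**Figure D2:**
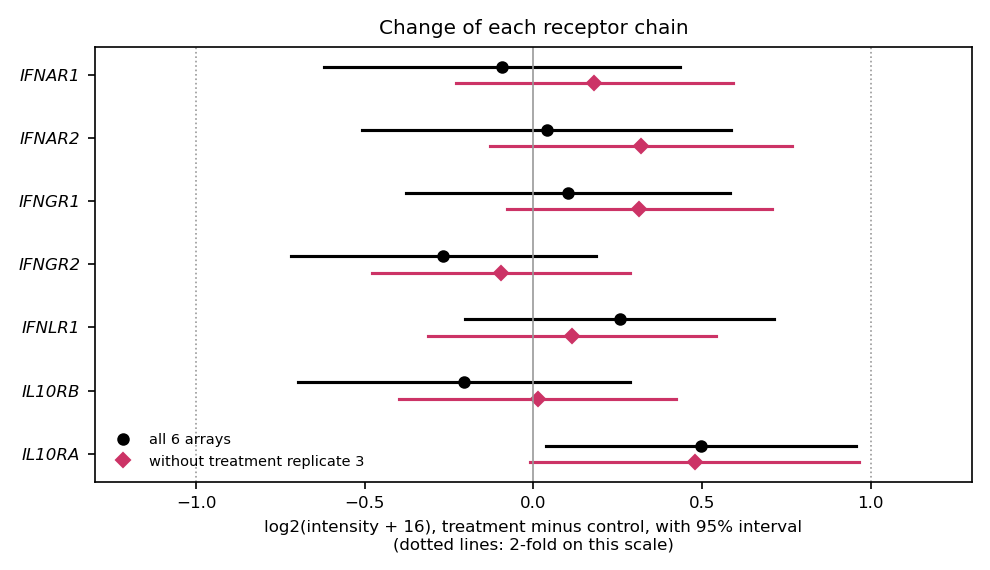
Difference in log2(intensity + 16), treatment minus control, for each receptor chain with limma's 95% interval, from all 6 arrays (black) and without treatment replicate 3 (red). All 14 intervals stay between the dotted lines at a 2-fold change, and IFNAR1 and IL10RB change sign between the 2 fits.

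The chains of a receptor were also compared with each other within each array. This removes a shift that both chains share, but adds up shifts in opposite directions. On treatment replicate 3, IFNLR1 and IL10RA were each at 0.54 relative to the control mean and IL10RB at -0.64. Only the change of the log2 difference between partners was read, since levels of different probe sets are not on a common scale. The 4 pairs were tested with exact two-sided permutation tests over arrays, whose smallest possible p with 3 against 3 is 0.1. IFNGR1 minus IFNGR2 was 0.37 higher in treatment arrays, with each treatment array (0.43, 0.39 and 0.28 relative to the control mean) above each control array (-0.10, 0.01 and 0.08; exact p = 0.1, 0.2 adjusted over the 4 pairs). IL10RA minus IL10RB was 0.70 higher, also with no overlap (exact p = 0.1, adjusted 0.2), but IL10RA was under the background gauge and the size was not fixed: 1.16 with a plain log2, 1.10 at an offset of 1, 0.44 at an offset of 50 and 0.46 without treatment replicate 3. IFNLR1 minus IL10RB was 0.46 higher (exact p = 0.2, adjusted 0.267), with 0.02, 0.18 and 1.18 in treatment replicates 1, 2 and 3, and 0.10 without treatment replicate 3. IFNAR1 minus IFNAR2 changed by -0.13 (exact p = 0.3, adjusted 0.3), with -0.20, -0.08 and -0.12 in the treatment arrays and -0.15 to 0.09 in the controls. Without treatment replicate 3 the change of the IFNGR pair was 0.41. The pairs without overlap are those with IFNGR2 and IL10RA, the chains whose groups also did not overlap alone, so they are not separate observations. How often the difference between other genes gives no overlap was not tested, and the design could not bring any pair under a p of 0.05.

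The chains IFNAR2, IL10RB, IFNAR1 and IFNGR2 are neighbours. In RefSeq's order of protein-coding genes on chromosome 21 they follow each other as listed, with OLIG2 and OLIG1 before them and TMEM50B, DNAJC28, GART, SON, DONSON, CRYZL1, ITSN1 and ATP5PO after them. RefSeq also lists a readthrough transcript of IFNAR2 and IL10RB, and whether it gave signal in their clusters was not tested. In treatment replicate 3 the 4 chains were -0.52, -0.64, -0.64 and -0.61 relative to the control mean. The 10 neighbours had a median of -0.25 on that array, against 0.12 and 0.03 on treatment replicates 1 and 2. IFNGR1, on chromosome 6, gave -0.32 on that array, and OLIG2 and OLIG1, which encode neural transcription factors, lay above their control means there. The low values on that array were thus not limited to the chromosome 21 chains. Over the 3 treatment arrays, 0 of the 10 neighbours passed limma, 0 had an unadjusted p under 0.05, and their median change was -0.02, or -0.14 without treatment replicate 1 and 0.10 without treatment replicate 3.

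**Figure D3:**
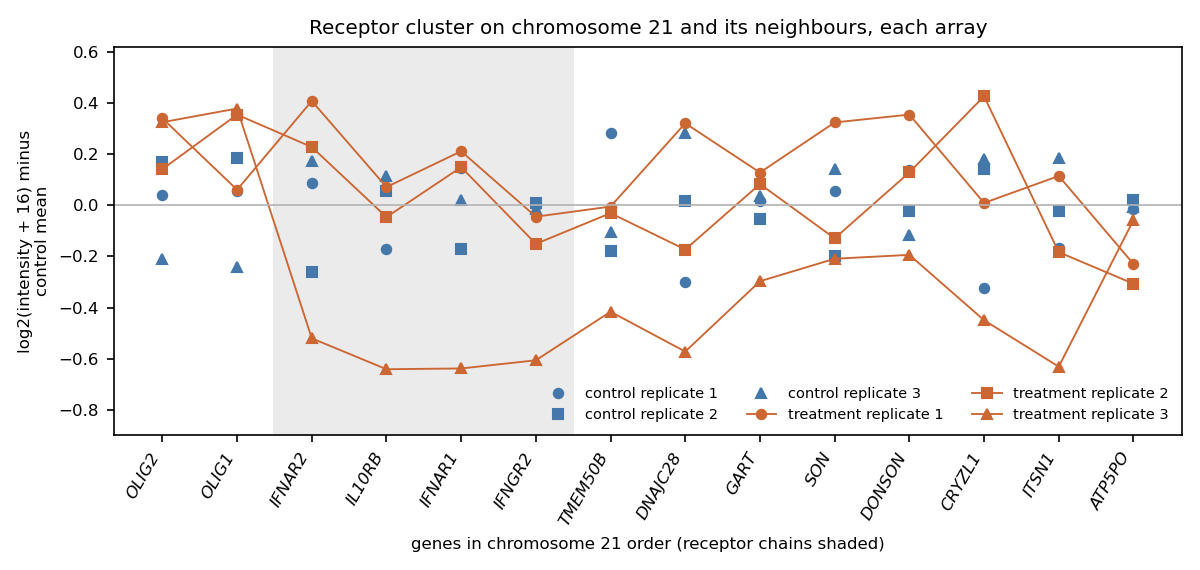
Log2(intensity + 16) minus the control mean for the 4 receptor chains of chromosome 21 (shaded) and 10 neighbouring genes, in gene order, for the 3 control (blue) and 3 treatment (orange, joined) arrays. Treatment replicate 3 lies at -0.52 to -0.64 over the 4 chains, while the other treatment arrays stay between -0.15 and 0.41 there.

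As a description, Pearson's r over the 6 arrays was 0.94 between IFNAR1 and IFNAR2, 0.91 between IFNGR2 and IL10RB, and at least 0.61 for every pair among the 5 chains with a control mean above 100. IFNLR1 had r from -0.85 to -0.40 with those 5, and IL10RA from -0.55 to 0.37 with the other chains. These points share arrays, and treatment replicate 3 was the lowest or the highest array of each of the 7 genes. The genes most like each chain, among 12998 (12999 for IL10RA) with a mean above the olfactory gauge, were SSB and RNF168 for IFNAR1 (r = 0.996 for each), CEP72 and ZNF112 for IFNAR2 (0.996 and 0.993), SERPINB1 and EIF5B for IFNGR1 (0.998 and 0.997), CEP55 and SH2D4A for IFNGR2 (0.998 and 0.996), KCNC4 and FIBCD1 for IFNLR1 (0.998 and 0.996), USP46 and SLC20A2 for IL10RB (0.999 for each), and TMEM26 and MIR200B for IL10RA (0.985 and 0.98). The genes with r over 0.95 numbered 532 with IFNGR1, 190 with IFNAR2, 166 with IFNGR2, 475 with IL10RB, 194 with IFNAR1, 65 with IFNLR1 and 8 with IL10RA. None of the 14 genes named passed limma (the lowest adjusted p was 0.641).

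The receptor chains stood beside ligands and targets that did change. Of 3 measured genes for type III interferons, whose receptor is IFNLR1 with IL10RB, IFNL1 and IFNL2 rose, by 2.13 ± 0.222 and 2.40 ± 0.221 on the log2 scale, and IFNL3 gave 0.85 ± 0.229 (limma, adjusted p = 0.346). Signal may be shared between the clusters of IFNL2 and IFNL3, whose sequences are almost the same. Of 13 measured genes for type I and II interferons, IFNB1 rose (1.75 ± 0.228; limma, adjusted p = 0.00148) and 12 did not pass. The next lowest p-values were those of IFNK, IFNA6 and IFNW1, with changes of 0.61, 0.44 and 0.37, and IFNG gave 0.11 ± 0.246 (limma, adjusted p = 0.946), the ligand of IFNGR1 and IFNGR2. The call of IFNB1 ended with a plain log2, an offset of 1 or an offset of 50. Those of IFNL1 and IFNL2 ended with a plain log2, and that of IFNL2 at an offset of 1 too. Of 6 genes for ligands of the interleukin 10 family, 0 passed and 0 had an unadjusted p under 0.05, with a median change of 0.03, and IL10 itself gave -0.06 ± 0.212. IFNK, IFNA6, IFNW1, IFNG and IL10 were under the olfactory gauge on all 6 arrays, and IFNB1 was above it on 1 treatment array.

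All 10 ISGF3 targets measured rose, with a median log2 change of 3.90 and values from 2.41 for ISG15, a ubiquitin-like modifier, to 4.60 for OAS2, which makes the activator of RNase L. IFIT1, whose promoter is printed above, went from 517 ± 60.7 to 3669 ± 348 (SD, n = 3). Of 8 measured genes known for strong induction by interferon gamma, CXCL10 (1.62 ± 0.26) and the transcription factor IRF1 (1.13 ± 0.205) rose and 6 did not pass. CXCL10, a chemokine, was above the olfactory gauge on 1 of 6 arrays. Of the 6, IDO1, an enzyme of tryptophan breakdown, gave 0.58 and the adhesion molecule ICAM1 0.62 (limma, adjusted p = 0.592 and 0.642). IDO1 was under the gauge on all 6 arrays, and ICAM1 was above it on 1 of 6. The calls of that list depended on single arrays and on the scale. Without any 1 of the control replicates or treatment replicate 2 neither gene passed, and without treatment replicate 3 only CXCL10 did. Both calls ended with a plain log2 and at an offset of 1, that of CXCL10 at an offset of 50 and that of IRF1 with the replicate block. These lists were chosen with the earlier results of these data known, so their counts are not independent evidence of direction.

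**Figure D4:**
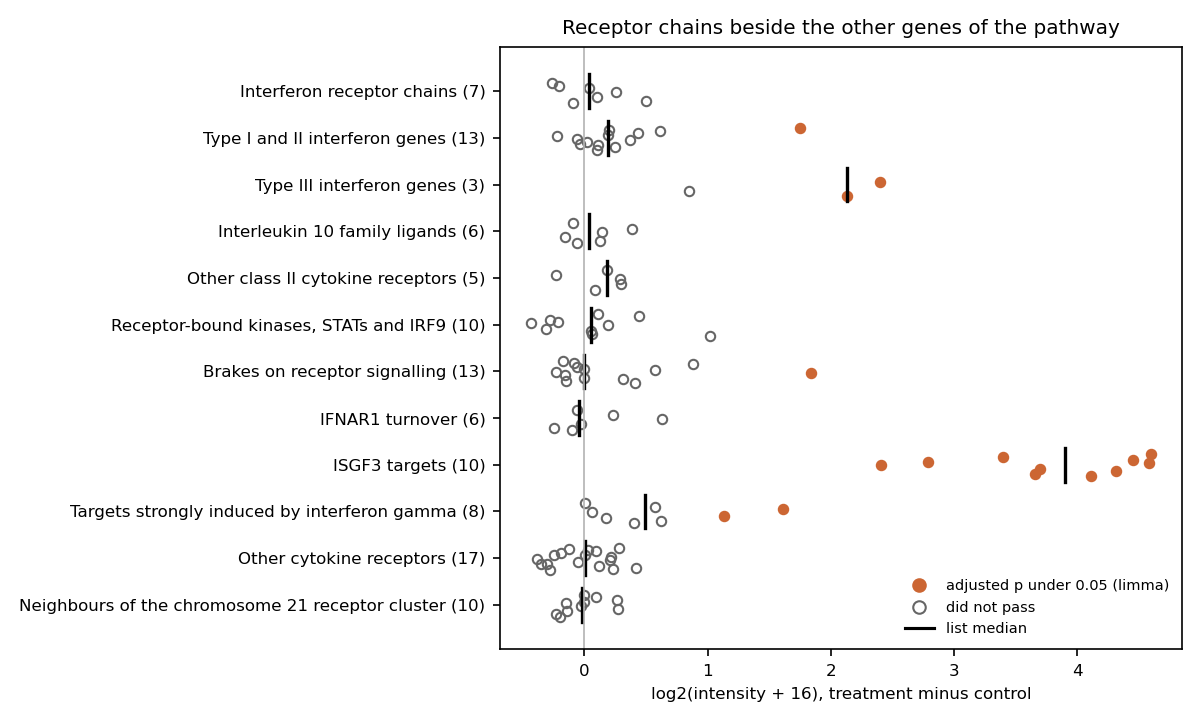
Change in log2(intensity + 16), treatment minus control, for every measured gene of the receptor list and of the other pathway lists, with the number measured in brackets, filled orange points for an adjusted p under 0.05 and black bars at list medians. The 7 receptor chains lie between -0.27 and 0.50, and the 10 ISGF3 targets between 2.41 and 4.60.

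Between receptor and target, few genes passed. Of the 10 measured kinases and transcription factors of the pathway, 0 rose and 0 fell, with a median change of 0.06. At an unadjusted p under 0.05 was 1 of the 10, IRF9, beside 7.3% of all clusters. IRF9, the DNA-binding part of ISGF3, had a mean of 260.2 ± 21.9 (SD, n = 3) under control and 555 ± 144 under treatment, with no overlap and a log2 change of 1.02 ± 0.227 (limma, adjusted p = 0.136), and it passed without treatment replicate 1. The receptor kinases gave -0.43 ± 0.208 for TYK2, -0.21 ± 0.209 for JAK1 and 0.05 ± 0.259 for JAK2, with adjusted p from 0.696 to 0.978 (limma). Groups did not overlap for 3 of the 10 genes, IRF9 with the treatment arrays higher, and TYK2 and STAT5B with them lower. Over all clusters 14.6% had no overlap, 7.47% with the treatment arrays higher and 7.1% with them lower. Of 13 brakes on receptor signalling, USP18, which binds IFNAR2 and limits responses to type I interferon, rose by 1.84 ± 0.195 (from 258 ± 11.5 to 965 ± 99.2, SD, n = 3; limma, adjusted p = 0.000204) and 12 did not pass. Among those 12, the kinase inhibitors SOCS3 and SOCS1 gave 0.88 ± 0.293 and 0.57 ± 0.287, and the SOCS family member CISH 0.41 ± 0.211, with adjusted p of 0.563, 0.698 and 0.702. USP18 passed under all 18 alternatives tried.

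Genes for the turnover of IFNAR1 did not pass either: 0 of 6, with a median of -0.04. At an unadjusted p under 0.05 was 1 of the 6, beside 7.3% of all clusters. That gene was PRKD2, a kinase that acts on IFNAR1 to mark it for ubiquitination, with means of 213 ± 27.4 under control and 342 ± 83.5 under treatment (SD, n = 3; 0.63 ± 0.226, limma, adjusted p = 0.614). SKP1, a ubiquitin ligase subunit, gave -0.25, the kinase CSNK1A1 0.23 and the ligase adaptor BTRC -0.10. Of 5 other class II cytokine receptors 0 passed and 0 had an unadjusted p under 0.05: IL20RA gave -0.23, IL20RB 0.30, the soluble IL22RA2 0.29, IL22RA1 0.18 and tissue factor F3 0.08. Of these, IL20RA and F3 were above the olfactory gauge on every array. Of 17 measured receptors for other cytokines, 0 passed and 1 had an unadjusted p under 0.05, beside the same 7.3% of all clusters. It was IL1R1 (0.42 ± 0.189, limma, adjusted p = 0.68), whose cluster was under the gauge on all 6 arrays. The median change of the 17 was 0.01. On treatment replicate 3 their median relative to the control mean was -0.24, with values from -0.84 for IL1RAP to 0.58 for IL4R. For the 7 chains described here that median was -0.52, with values from -0.64 for IL10RB to 0.54 for IFNLR1.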

How the data were processed

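Per the labels, total RNA of HEK293 cells was biotin-labelled for Affymetrix Gene 1.0 ST arrays, and the submitters' processing notes name Partek. The authors deposited linear intensities per transcript cluster. How these were background-corrected, normalized and summarised is not given in the sources used here. Symbols came from the platform annotation. Genes with more than 1 cluster were represented by the brightest. All 33297 clusters were fitted with limma 3.58.1 (lmFit, eBayes) in R 4.3.3 on log2(intensity + 16) without a block, two-sided, with no filter on dim clusters. The offset of 16, the members and the lists were chosen with earlier results of these data known. The fit was tested on simulated data. Named were all chains, passing or lowest-p members of each list (some lists by fewer than 4), and for each chain the 2 genes with the highest r over 6 arrays. IFNG, IL10, JAK1, JAK2 and, within their lists, OLIG1 and OLIG2 were added for their place in the pathway or locus, after their values were seen. Alternatives were other offsets, normalizations, variance priors, a filter, gene-level tests, the replicate block and each array left out, plus cyclic loess, added after seeing the data. Depth does not apply to arrays, whose number limits precision.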

Additional observations from a re-analysis of the deposited data

How the results depend on the processing

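Under the 18 alternatives tried (17 for IL10RA, which the filter at the median intensity left out), 0 of the 7 receptor chains passed limma, with adjusted p from 0.493 to 0.997, and intervals stayed within a 2-fold change except for IL10RA under some of them (up to 1.80 with a plain log2). The signs of IFNGR2, IFNLR1 and IL10RA held. IFNAR2 turned to -0.017 with median centring. Leaving out each array in turn gave -0.24 to 0.18 for IFNAR1, -0.15 to 0.32 for IFNAR2, -0.040 to 0.31 for IFNGR1 and -0.34 to 0.013 for IL10RB. The count of differing clusters was 40 without an offset, 58 at an offset of 1, and 69 (without control replicate 1) to 129 with an array left out, 82 without treatment replicate 2. No offset and offsets of 1 and 50 gave, in that order, 0, 0 and 0 calls of type I and II interferons and 0, 0 and 1 of interferon gamma targets, and medians of 2.79, 2.73 and 1.40 for type III interferons, 4.29, 4.26 and 3.34 for ISGF3 targets and 0.35, 0.34 and 0.087 for other class II receptors. Type III calls were 0 without an offset and 1 (IFNL1) at 1, the type I and II median was 0.48 without one, and that of gamma targets 0.28 at 50. The filter gave 1 call and a median of 1.49 for type III interferons, 1 call and 0.77 for gamma targets, 1 call (IRF9) of kinases and factors, and -0.073 for other class II receptors, whose median was 0.078 with quantile and 0.087 with cyclic loess normalization and 0.067 to 0.20 with an array left out. IRF9 was also the 1 call of its list with an intensity trend, with 1 cluster per gene and with the mean of a gene's clusters. In the last 2, where eBayes gave all genes the same variance, the brakes had 2 calls, SOCS3 and USP18. With an array left out, calls were 0 to 2 for gamma targets and 0 to 1 for kinases and factors, and the brakes' median -0.12 to 0.19. With the replicate block, 105 clusters differed, and gamma targets had 1 call. Deviations of same-numbered arrays correlated at -0.30, 0.12 and -0.50, and 1 of 6 arrays correlated best with its own number, so the numbers were not taken to pair the arrays. The block moved no chain across the threshold. The causes of these shifts were not tested.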
